A study of Caenorhabditis elegans with 2 samples.

Results

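Clathrin-mediated endocytosis takes cargo and membrane into the cell in small coated vesicles. Epsin and the AP-2 complex link the membrane and its cargo to a clathrin lattice, endophilin and related proteins bend the membrane, and dynamin cuts the bud free. In Caenorhabditis elegans the route is best known from the uptake of yolk by oocytes and from the recycling of synaptic vesicles in neurons. Described here are 10 genes of this route in a chromatin immunoprecipitation (ChIP-seq) experiment: epn-1 (epsin), chc-1 and clic-1 (clathrin heavy and light chain), apa-2, apb-1, dpy-23 and aps-2 (the α, β, μ and σ subunits of AP-2), unc-11 (AP180/CALM), unc-57 (endophilin A) and dyn-1 (dynamin). They are 10 of the 19973 protein-coding genes annotated on the nuclear chromosomes. The set was drawn up around epn-1, which was chosen by the signal of its peak, among the strongest of these same files. Its values are therefore a description, and no test was made on them.

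Both libraries came from whole young adults of pooled sexes, aged 72 hours and synchronised by bleaching and L1 starvation. The animals were of strain OP214, which carries unc-119(ed3) on chromosome III and the insertion wgIs214, and which makes K12H6.12 fused at its C-terminus to GFP-FLAG. Chromatin was sonicated and pulled down with an antibody to GFP. There was 1 group of 2 samples from this single transgenic line, called replicates 2 and 3 as in the labels, and whole animals mix all tissues. The sources used here do not name the promoter of the transgene. The control was not analysed here, so whether a peak marks K12H6.12 was not tested. The deposited lists held 27073 peaks in replicate 2, 30000 in replicate 3 and 30000 in the pool of both, all called at a relaxed threshold. The authors label the pooled list as peaks and background, so an entry in it need not be a binding site. A further list of 2268 peaks was thresholded on reproducibility (irreproducible discovery rate, IDR), and these were the 2268 strongest peaks of the pooled list. A place in it thus coincided with a cut on pooled signal. Of the 2268 summits, 44 had no replicate 3 peak over them and 7 no replicate 2 peak. The authors' −log10 q-value was above 2 for all 2268. In the relaxed lists it was above 2 for 3847 pooled, 3659 replicate 2 and 3601 replicate 3 peaks. Signal below is the authors' peak caller value, and rank is a peak's place by signal within its own list, rank 1 being the strongest. Each gene was searched from 2000 bp upstream of its annotated 5′ end to its 3′ end. Read totals are unknown.

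The sequences under the upstream peaks of 6 of the genes are shown on the strand of each gene, since they carry summits described below and the 6-mers found there. Those of unc-57 and unc-11 are not shown. For epn-1 they run over 300 bp with both IDR summits (chrX:14818943-14819242, minus strand, the stronger summit at base 251). The others are shorter, with the summit at base 51. They are dpy-23 (chrX:4389015-4389115, plus strand), apb-1 (chrIII:2597224-2597324, minus strand), apa-2 (chrX:9337948-9338048, plus strand), dyn-1 (chrX:15568357-15568457, plus strand) and aps-2 (chrX:4458037-4458137, plus strand), whose peak lay just below the IDR list. Positions are on build ce11 (WBcel235), and the letters are those of the RefSeq genome of that build. Capitals mark matches, on either strand, to the 6-mer GCGGCC or to CGCGCC or to CGCGAC, which are described with the sequence results. The sequences of apb-1, dyn-1 and aps-2 had no match. None of the windows overlapped an annotated UTR or coding exon.
epn-1: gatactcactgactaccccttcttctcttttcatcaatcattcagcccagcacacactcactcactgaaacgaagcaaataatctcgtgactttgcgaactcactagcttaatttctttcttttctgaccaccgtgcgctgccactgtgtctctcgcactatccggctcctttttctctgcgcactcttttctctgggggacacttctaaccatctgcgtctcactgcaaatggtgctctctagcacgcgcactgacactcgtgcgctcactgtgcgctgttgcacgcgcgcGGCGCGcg
dpy-23: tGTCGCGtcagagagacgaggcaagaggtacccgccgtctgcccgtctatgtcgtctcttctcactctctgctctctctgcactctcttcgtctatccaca
apb-1: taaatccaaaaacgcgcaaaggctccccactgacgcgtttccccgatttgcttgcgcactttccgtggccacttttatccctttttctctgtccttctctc
apa-2: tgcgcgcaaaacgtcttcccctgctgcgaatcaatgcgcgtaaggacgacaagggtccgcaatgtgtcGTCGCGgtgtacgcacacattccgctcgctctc
dyn-1: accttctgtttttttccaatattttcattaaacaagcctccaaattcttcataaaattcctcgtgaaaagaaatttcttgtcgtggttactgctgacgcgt
aps-2: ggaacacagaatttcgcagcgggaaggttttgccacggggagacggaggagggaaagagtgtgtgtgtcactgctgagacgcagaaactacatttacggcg

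Of the 10 genes, 7 had an IDR summit in the window, with 8 summits between them, and all 8 lay upstream of the gene. The 7 were epn-1, dpy-23, apb-1, unc-57, apa-2, dyn-1 and unc-11. The gene epn-1, chosen for its peak, is thus counted among the 7 and holds 2 of the 8 summits. Of all 19973 coding genes 2275 had one, or 11.4%. The 3 without one were both clathrin chains, chc-1 and clic-1, and the σ subunit gene aps-2. The signal of the strongest IDR peak had a median of 169.7 over the 7 genes and 152.9 over the 2275. In the pooled relaxed list every one of the 10 had a summit, but so did 61.7% of all coding genes. There the strongest signal per gene had a median of 138 over the 10 genes, against 47.2 over the 12326 coding genes with a summit. Both are medians of the highest value in a window and were not matched for window length. The 10 include epn-1, which was chosen for its signal. The windows of the 10 genes ran from 2984 to 15064 bp, with a median of 6271 bp against 4027 bp for all coding genes. Of the 15844 coding genes with windows in that range, 1833 or 11.6% had an IDR summit. The range holds most of the 19973 coding genes, so this share is not matched to the window lengths of the 10.

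**Figure D1:**
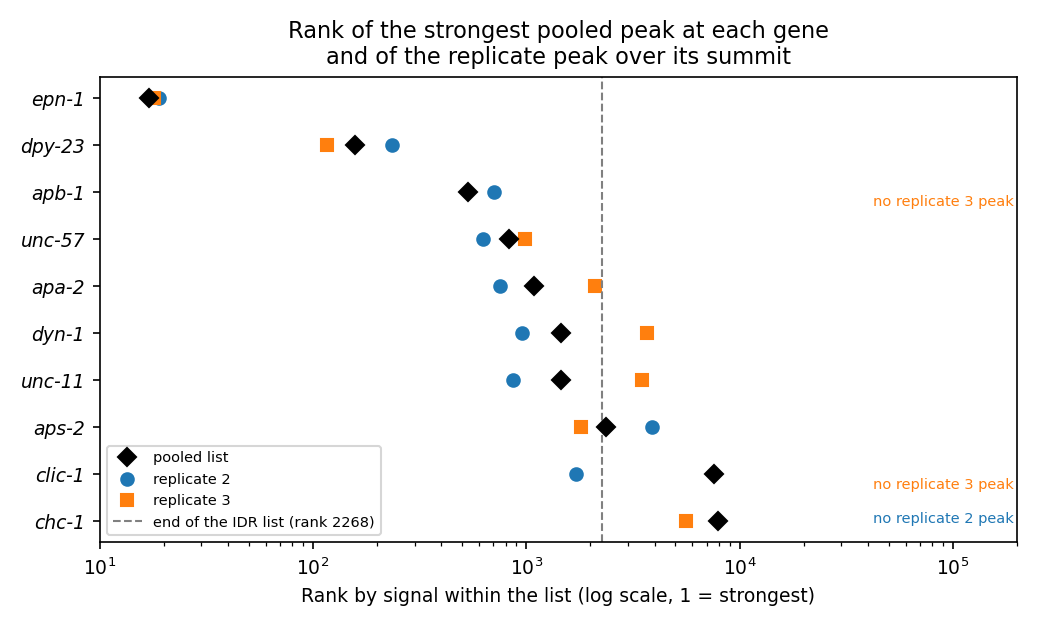
Rank of the strongest pooled peak in the window of each gene (black), and of the peak of replicate 2 (blue) and replicate 3 (orange) over its summit, each within its own list, on a log axis. The epn-1 ranks are 17, 19 and 18, while at apb-1 and clic-1 no replicate 3 peak and at chc-1 no replicate 2 peak covers the pooled summit.

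The epsin gene epn-1 (WBGene00001329, X, 14815798 to 14818514, minus strand) had the strongest peak of the set. Epsin binds membrane phosphoinositides, ubiquitinated cargo, AP-2 and clathrin, and helps to curve the membrane. Its main summit, at X 14818992, stood 478 bp upstream of the 5′ end and had a signal of 634, rank 17 of 30000 in the pooled list. The signal was 347 in replicate 2 (rank 19) and 289.8 in replicate 3 (rank 18). The replicates thus placed this peak at nearly the same rank, with summits 47 bp and 2 bp from the pooled one. A second IDR entry shared the interval, 14818732 to 14819245, with its summit 679 bp upstream and a signal of 117, rank 1647. The replicates differed more at this second summit: the replicate 2 peak over it had a signal of 173 (rank 203) and the replicate 3 peak one of 35.2 (rank 4626).

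The main epn-1 summit lay inside a pair of short annotated non-coding RNA genes on opposite strands, T04C10.8 and T04C10.9, each 139 bp long. It was 11 bp from the 5′ end of T04C10.8, so the nearest annotated 5′ end of any kind was not that of epn-1. The 5′ end of a further non-coding RNA gene, T04C10.7, was 306 bp from the second summit, nearer than that of epn-1. Among coding genes the 5′ end of epn-1 was the nearest, and no other coding gene had the summit in its window. Peaks of similar strength were those ranked 14 to 20 in the pooled list, a likeness of rank in a single list only. The nearest coding genes of the 3 ranked above were sup-26 (signal 672), Y39E4B.6 (663) and sor-1 (650.1), and of the 3 ranked below serp-1.1 (629), iff-2 (624) and tos-1 (616). The summit near sup-26 lay 2015 bp upstream of its 5′ end, beyond the window used here, and the others lay 45 to 559 bp upstream. Inside epn-1 the pooled list had a pair of weak summits, 1174 and 1480 bp downstream of the 5′ end, the farther one with a signal of 49.4.

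The 4 AP-2 genes spanned a wide range of signal. The μ subunit gene dpy-23, whose product binds sorting motifs in cargo tails, came first (WBGene00001082, X, 4389359 to 4393803, plus strand). Its summit at X 4389065, 294 bp upstream, had a signal of 335 in the pooled list (rank 158), 163 in replicate 2 (rank 236) and 168 in replicate 3 (rank 117). The peak thus ranked higher in replicate 3 than in replicate 2, and the replicate 2 and replicate 3 summits stood 3 and 20 bp from the pooled one. The interval was narrow, 290 bp, against the median width of 456 bp in the IDR list. Like that of epn-1, this summit lay within a short non-coding RNA gene, R160.8, on the strand opposite to dpy-23. The 5′ end of R160.8, 249 bp away, was nearer to the summit than that of dpy-23. The gene also had the strongest summit found inside any of the 10 genes, in an intron 2599 bp downstream of the 5′ end. That summit was outside the IDR list, with a signal of 80.5 (rank 3193) in the pool, and the replicate peaks over it had 46.6 (replicate 2, rank 3372) and 39.5 (replicate 3, rank 3522).

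At apb-1, the β subunit gene, the replicates did not match. The product serves in both AP-1 and AP-2 in C. elegans and binds clathrin. The gene (WBGene00000160, III, 2583971 to 2597034, minus strand) had an IDR summit 240 bp upstream, at III 2597274, with a signal of 206 (rank 533). Replicate 2 had a peak with a signal of 104 (rank 708) and its summit 3 bp away. Replicate 3 had no peak over the summit, and its nearest summit was 724 bp away, inside the gene, with a signal of 20.2 (rank 17760). Of the 2268 IDR summits, 44 had no replicate 3 peak over them, and 8 of these 44, apb-1 included, ranked at 533 or above. The summit lay in the window of one other coding gene, mdt-19, which encodes a Mediator subunit, but the 5′ end of apb-1 was nearer.

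The α subunit gene apa-2 and the σ subunit gene aps-2 stood on either side of the end of the IDR list. At apa-2 (WBGene00000161, X, 9338675 to 9342900, plus strand) the summit lay 677 bp upstream, at X 9337998. Its signal was 150.5 in the pool (rank 1084), 102 in replicate 2 (rank 753) and 50.7 in replicate 3 (rank 2104). At aps-2 (WBGene00000157, X, 4458272 to 4459255, plus strand) the only pooled summit lay 185 bp upstream, at X 4458087, with a signal of 95.9 and rank 2364. The weakest IDR peak had a signal of 97.9, and the weakest at these genes, the second summit of epn-1, one of 117. Replicate 2 gave aps-2 a signal of 43.2 (rank 3866) and replicate 3 one of 54.3 (rank 1808), with summits at 0 and 13 bp from the pooled one. Both replicates thus had a peak here, and in replicate 3 it was among the 2268 strongest. The genes dpy-23 and aps-2 lie 64469 bp apart on X and have separate peaks.

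**Figure D2:**
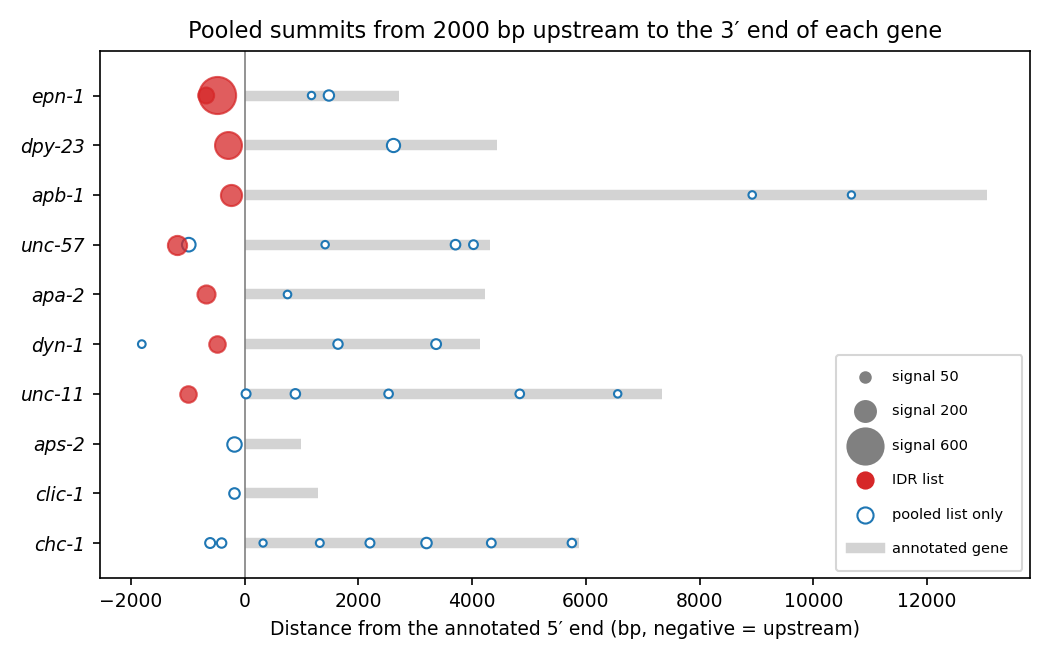
Summits of the pooled list by distance in bp from the annotated 5′ end of each gene (negative is upstream), with the area of each point proportional to the peak's signal and the annotated gene as a grey bar. Red points are in the IDR list and all 8 lie upstream, between 240 and 1192 bp, while open points are in the pooled list only.

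The accessory genes unc-57 and unc-11, both on chromosome I, had their summits farthest from the gene. Endophilin A, the product of unc-57, senses and makes membrane curvature and recruits synaptojanin. The unc-57 summit (gene WBGene00006791, I, 4675133 to 4679448, plus strand) lay 1192 bp upstream, at I 4673941. Its signal was 169.7 in the pool (rank 828), 110.3 in replicate 2 (rank 628) and 72.8 in replicate 3 (rank 991). A second pooled summit 985 bp upstream had a signal of 85.8 (rank 2848) and lay under the same peak of each replicate. The replicate 2 summit was 26 bp and the replicate 3 summit 144 bp from the pooled one, so that of replicate 3 stood between both pooled summits. The product of unc-11, the AP180/CALM protein, controls vesicle size and sorts the synaptic vesicle protein synaptobrevin. The unc-11 summit (gene WBGene00006751, I, 3798396 to 3805739, minus strand) lay 993 bp upstream, at I 3806732, with a signal of 126 (rank 1459). It had 94.8 in replicate 2 (rank 870) and 39.6 in replicate 3 (rank 3480). No IDR summit stood at the internal transcript starts annotated 2562 bp into unc-57 and 2635 bp into unc-11. The pooled list had a summit 105 bp upstream of the internal start of unc-11, with a signal of 34.0 (rank 17661).

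The dynamin gene dyn-1, which encodes the GTPase that cuts the vesicle neck, had a summit of about the same pooled signal as unc-11. The gene (WBGene00001130, X, 15568890 to 15573021, plus strand) had it 483 bp upstream, at X 15568407, with a signal of 126 (rank 1453). The signal was 90.5 in replicate 2 (rank 958) and 38.6 in replicate 3 (rank 3699). In replicate 3 the peak was thus outside the 2268 strongest, as at unc-11. The replicate 2 summit stood 2 bp and the replicate 3 summit 83 bp from the pooled one. A weak pooled summit 1811 bp upstream had a signal of 27.2 (rank 25457). The replicate 2 peak over that weak summit had a signal of 92.7 (rank 923), but its own summit lay outside the window.

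The clathrin chains had no IDR summit. The heavy chain gene chc-1, which encodes the main scaffold of the coat (WBGene00011867, III, 10203821 to 10209704, plus strand), had 8 weak pooled summits, all with signals from 24.2 to 50.6. The strongest lay in a coding exon 3197 bp downstream of the 5′ end (rank 7923), with a −log10 q-value of 0.721, the highest of the 8. It had no replicate 2 peak over it and a replicate 3 peak of signal 32.7 (rank 5621). The pooled summits upstream of chc-1 stood 407 and 609 bp from the 5′ end, with signals of 40.9 and 45.6. One peak in each replicate lay over both, with 30.5 in replicate 2 (rank 7866) and 35.4 in replicate 3 (rank 4538). A stronger replicate 2 peak, with 37.9 (rank 4985), lay over the pooled summit 5754 bp downstream of the 5′ end, in a UTR. The summit of that replicate 2 peak was outside the window. At clic-1, the light chain gene (WBGene00020246, V, 7733624 to 7734911, minus strand), the replicates differed. Replicate 2 had a summit 37 bp upstream with a signal of 66.6 (rank 1720), within its 2268 strongest peaks, and one 237 bp upstream with 43.7 (rank 3775). Replicate 3 had no summit in the window, its nearest to the pooled summit being 1713 bp away. The pooled list had a single summit at clic-1, 186 bp upstream, with a signal of 51.6 (rank 7567). That summit also lay in the windows of the coding genes srr-10 and WBGene00044342.

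With each replicate alone, 8 of the 10 genes had a summit among the 2268 strongest peaks of replicate 2, where 10.9% of all coding genes had one. In replicate 3 it was 5 of the 10, against 11.4%, and in both replicates 4 (epn-1, dpy-23, apa-2 and unc-57), against 8.44%. Replicate 2 alone gave the same 7 genes as the IDR list and clic-1. Replicate 3 alone gave epn-1, dpy-23, apa-2 and unc-57 with aps-2, and lost apb-1, dyn-1 and unc-11. At dyn-1, apa-2 and unc-11 the ratio of replicate 2 to replicate 3 signal was 2.34, 2.01 and 2.39. Over the 2218 IDR summits covered in both replicates the median ratio was 1.18 and the 95th percentile 2.54. The ratio was 1.51 at unc-57 and 1.20 at epn-1, and it was below the median at dpy-23 (0.970) and aps-2 (0.795).

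**Figure D3:**
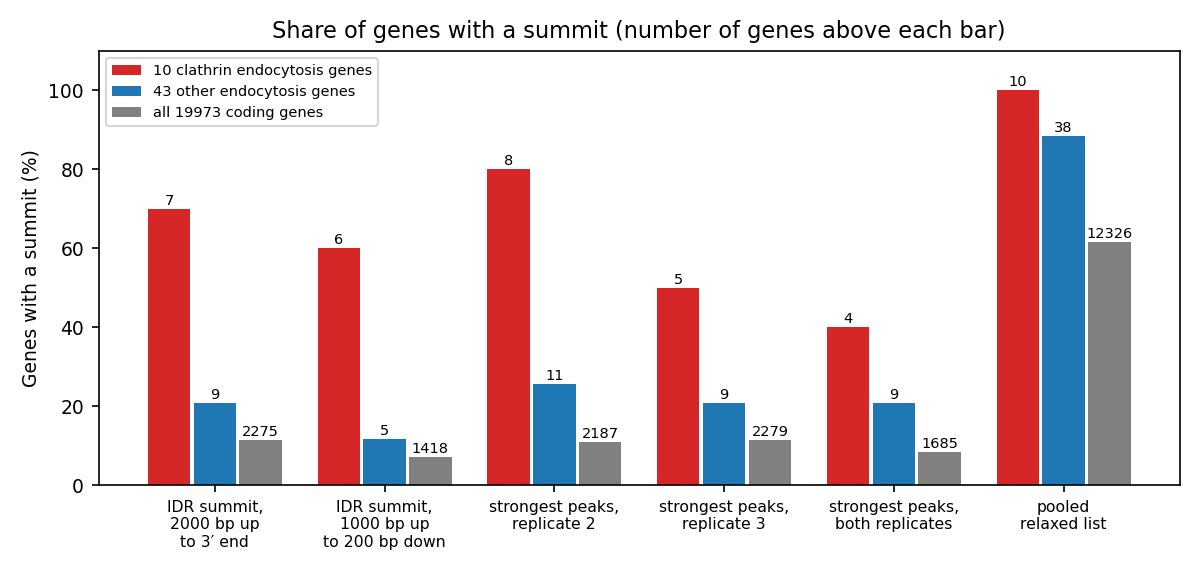
Share of the 10 clathrin endocytosis genes (red), of 43 other endocytosis genes (blue) and of all 19973 coding genes (grey) with a summit, in percent, by peak list and window, with the number of genes above each bar. For IDR summits from 2000 bp upstream to the 3′ end the numbers are 7, 9 and 2275, and each of the 10 genes makes up 10 percentage points of a red bar.

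The strong summits of the pooled list lay upstream of the genes and the weak ones mostly inside them. In the pooled list 14 of the 36 summits at the 10 genes lay upstream (38.9%), close to the 40.8% of 33146 gene and summit pairs over all coding genes. The 14 upstream summits had a median signal of 122 and ranged from 27.2 to 634, while the 22 inside genes had a median of 34.9 and at most 80.5. Of these 22, 14 lay in coding exons, 4 in introns and 4 in UTRs. The strongest, in the dpy-23 intron, had a −log10 q-value of 2.53, and the others had at most 0.721. Whether these weak entries are more than background was not tested. In the IDR list all 8 lay upstream, against 72.9% of 2704 pairs over all coding genes. The strongest IDR summit stood 240 to 1192 bp upstream, with a median of 483 bp over the 7 genes, against 424 bp over the 1763 coding genes whose strongest IDR summit lay upstream. With a window from 1000 bp upstream to 200 bp downstream of the 5′ end, 6 of the 10 genes had a summit, against 7.1% of coding genes, the summit of unc-57 being too far. With only summits counted whose nearest coding 5′ end was that of the gene itself, 7 of the 10 genes had one, against 1516 of the 19973 coding genes (7.59%).

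Of the 10 genes 5 lie on X and 5 on autosomes. On X the genes epn-1, dpy-23, apa-2 and dyn-1 had an IDR summit, 4 of 5, where 12.1% of 2731 coding genes had one. On the autosomes apb-1, unc-11 and unc-57 had one, 3 of 5, where 11.3% of 17242 did.

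The summit windows, of the same length as the shorter sequences printed, were richer in G and C than coding promoters, as were IDR windows in general. The median GC content was 50.5% over the 8 windows at these genes (34.7% to 61.4%), 48.5% over all 2268 IDR windows, and 33.7% over windows of the same length centred 100 bp upstream of the 19973 coding genes. The main epn-1 summit was the richest of the 8, at 61.4%, with apa-2 at 59.4% and dpy-23 at 56.4%, and dyn-1 was the lowest at 34.7%. Of 2080 6-mers, counted on both strands, 557 stood in at least 5% of IDR windows. Among these 557, the 3 with the highest ratio of IDR windows to promoter windows were all made of G and C or nearly so. The ratios were not adjusted for the higher GC content of the IDR windows. The 6-mer GCGGCC stood in 5.91% of IDR windows and 0.981% of promoter windows, and in 0 of the 8 windows here. The 6-mer CGCGCC, found in 8.82% and 1.56%, was in the main epn-1 window, while the 6-mer CGCGAC, found in 5.78% and 1.03%, was in those of apa-2 and dpy-23. These can overlap each other. At least one of the 3 was in 3 of the 8 windows, against 17.9% of IDR windows and 3.32% of promoter windows. The 6-mer GAGAGA was looked for on both strands after the sequences had been read, and stood in 4 of the 8 windows (apb-1, dpy-23, unc-11 and unc-57), in 30.4% of IDR windows and in 9.03% of promoter windows. Each match is a description of the letters and not of a bound site.

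A wider list of 44 endocytosis genes was drawn up from knowledge of the route, and 43 of them matched the annotation (erp-1 did not). An IDR summit lay in the window of 9 of the 43, where 11.4% of all coding genes had one. By role they were 6 of 12 endosomal GTPase and regulator genes, 3 of 9 adaptor and scaffold genes, and 0 in the other 4 roles. The share of all coding genes beside each role is the same 11.4%. At most of the 9 another coding gene had the nearer 5′ end, as given below. The list was drawn up with earlier results of these data known, and a difference between roles was not tested. The strongest was at rab-7, the late endosome GTPase gene, with a signal of 449 (rank 55) and its summit 768 bp upstream, but the coding gene with the nearest 5′ end was W03C9.5. The next was at arr-1, which encodes an arrestin, with 424 (rank 67), and there sms-2 was nearer. Both were of similar rank in the replicates, 74 and 49 at rab-7 and 106 and 57 at arr-1 (replicate 2, then replicate 3).

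Of the 9 genes only unc-41, rab-5 and arf-6 were themselves the nearest coding gene to the summit. That is 3 of the 43, against 7.59% of all coding genes. At unc-41, which encodes a stonin-like adaptor, the summit lay 5911 bp inside the gene with a signal of 222 (rank 452). At rab-5, the early endosome GTPase gene, it lay 729 bp upstream with 193 (rank 629), and at arf-6 157 bp upstream with 129 (rank 1393). The nearest coding genes were knl-2 for the rab-10 summit (signal 186), rpl-7 for that of rab-11.1 (164), sbt-1 for that of num-1 (161) and str-206 for that of rme-1 (128). No IDR summit stood at the adaptor and scaffold genes ehs-1, itsn-1, fcho-1, hipr-1, dab-1 and sel-5, nor at the membrane shaping and uncoating genes unc-26, dnj-25, amph-1, sdpn-1, rme-8, ppk-1, wsp-1, toca-1 and toca-2. The same held for the other adaptor complex genes apg-1, aps-1, apm-1, unc-101, apb-3, apd-3, apm-3 and aps-3, and for rab-35, rme-6, rabs-5, rabn-5, tbc-2 and alx-1. It also held for the endosomal sorting genes hgrs-1 and stam-1, and for the remaining genes of the list, rme-2, lrp-1 and cup-4. A difference between the 10 genes and this list was not tested, since the 10 were assembled around a strong peak.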

How the data were processed

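Peaks were measured by anti-GFP ChIP-seq in 2 biological replicates of 1 group. Per the text deposited with the samples, peaks were called for each replicate and for the pool against 1 control alignment on build ce11, and the IDR list was derived from these 3 lists. The signal is a score that the authors' peak caller gave and whose scale is not stated, so peaks were ranked by it inside each list. The authors' files also hold a −log10 q-value per peak. The sources used here name no caller, aligner or IDR threshold.

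Summits (interval start plus summit offset) were placed on Ensembl release 115 genes (WBcel235, the same build) with Python 3.11.15 and pandas 2.3.3. All peak ends lay within the chromosomes. Counts of genes are given beside those over all coding genes. A replicate alone means its 2268 strongest peaks. Sequences came from the RefSeq WBcel235 genome, and 6-mers had to stand in at least 5% of IDR windows. Window counts and the 6-mer census recovered what was planted in simulated data. The 10 genes, the wider list and the windows were chosen with earlier results of these data known. No test was made, because there is 1 group and the genes were chosen from these lists. Genes named are the 10, those of the wider list, coding genes next in rank to epn-1, and genes with a nearer 5′ end. The alternatives were other windows, lists, thresholds and hits, and GAGAGA was added after seeing the data.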

Additional observations from a re-analysis of the deposited data

How the results depend on the processing

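The count of 7 genes with an IDR summit, against 11.4% of all coding genes, was 8 without replicate 3 (10.9%) and 5 without replicate 2 (11.4%). It was 5 among the 1134 strongest IDR peaks (6.09%) and 10 in the pooled relaxed list (61.7%). With the window from 1000 bp upstream to 200 bp downstream it was 6 (7.1%). The count was 7 with 5000 bp upstream (16.6%), with any overlap of the interval (12.3%) or with the nearest coding 5′ end (7.59%). It was 4 with 500 bp upstream, against 7.59%, since apa-2, unc-11 and unc-57 have their summits farther away. The wider list had 9 of 43 genes with a summit, against 11.4% of all coding genes. It had 11 without replicate 3 (10.9%), 9 without replicate 2 (11.4%) and 7 among the 1134 strongest IDR peaks (6.09%). It had 5 with the window of 1000 bp upstream to 200 bp downstream (7.1%). It had 3 of 43 with 500 bp upstream (7.59%), and 3 of 43 with only the nearest coding 5′ end counted (7.59%). With 3 of 43 genes the list was not above the share of all coding genes. The main peak of epn-1 ranked 17, and 18 to 19 with 1 replicate left out. Without replicate 2 the best rank moved to 3699 at dyn-1, 3480 at unc-11 and 2104 at apa-2. At apb-1 and chc-1 the best rank was then 17760 and 4538, but of a different summit than in the pool. These summits lay 484 bp inside apb-1 and 526 bp upstream of chc-1. Without replicate 3 the best rank moved to 1720 at clic-1 and 3866 at aps-2. Counting summits within 150 bp once could not change the 8 summits. The only pair at the same gene, at epn-1, is farther apart than that, although both lie in a shared interval.

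Read totals are unknown and were not used, so what the absence of a replicate 3 peak at apb-1 and clic-1 rests on was not tested. The signals of different lists have no stated common scale.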
